A study of Mus musculus with 6 samples.

Results

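Actin filaments grow from monomers and are taken apart again, and 10 genes that act on this cycle were followed in resting CD8 T cells with and without LAIR-1. They were taken as the rows of the count table with the symbols Actb, Tmsb4x, Tmsb10, Pfn1, Cfl1, Coro1a, Coro1b, Coro1c, Coro2a and Coro7. All 10 were found among the 14515 gene rows, and all 10 were among the 9565 genes that passed the filter on low counts. The genes were proposed in view of their counts in all 6 libraries, so they were selected on the values described here, with no threshold. LAIR-1, encoded by Lair1, is a collagen receptor that dampens immune cells. The 2 groups were naive CD8 T cells of 3 Lair1-/- (LAIR-1-deficient, KO) mice and of 3 Lair1+/+ (wild type, WT) mice, at baseline and with no treatment named. From each spleen 100000 cells were sorted by flow cytometry with a gate that included CD45, CD3 and CD8 and left out cells with CD44, and 1 RNA library was made per mouse. The sources used here give no strain, age or sex, and do not say which part of Lair1 the allele removes.

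Actin monomers in a cell are largely held in reserve by thymosins, which sequester them. Profilin reloads monomers with ATP and hands them to growing filament ends, while cofilin severs and shortens old filaments. Coronins bind filaments and the ARP2/3 complex, which makes branches, and they guide cofilin to older filaments. In T cells this cycle drives migration through lymphoid tissue and shapes the contact with antigen-presenting cells. Coro1a is the main coronin of leukocytes, and its loss in mice and in people leaves few naive T cells.

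The members lie on 8 chromosomes, and all are annotated as protein coding in GENCODE vM21 (GRCm38). Actb is at chr5:142903115-142906754 on the minus strand, and Cfl1 at chr19:5490455-5495201 on the plus strand. Tmsb4x is at chrX:167207093-167209315, Tmsb10 at chr6:72957347-72958748 and Pfn1 at chr11:70651850-70654644, all on the minus strand. Among the coronins, Coro1a is at chr7:126699773-126707787 (minus strand, 11 exons in transcript Coro1a-201) and Coro1b at chr19:4148619-4154035 (plus strand, 11 exons in Coro1b-201). Coro1c is at chr5:113842436-113908758 (minus strand, 11 exons in Coro1c-201), Coro2a at chr4:46536937-46602202 (minus strand, 13 exons in Coro2a-201) and Coro7 at chr16:4626133-4679777 (minus strand, 28 exons in Coro7-201).

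Several members have close relatives, so the sequences below show how far reads can tell them apart. The coding sequences of the 2 thymosins are both 135 bases long in GENCODE and differ at 40 positions (70.4% identity). Capitals mark the positions that differ:
Tmsb4x: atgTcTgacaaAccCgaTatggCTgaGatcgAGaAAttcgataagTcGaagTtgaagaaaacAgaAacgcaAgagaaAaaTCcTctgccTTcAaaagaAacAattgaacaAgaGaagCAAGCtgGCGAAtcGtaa
Tmsb10: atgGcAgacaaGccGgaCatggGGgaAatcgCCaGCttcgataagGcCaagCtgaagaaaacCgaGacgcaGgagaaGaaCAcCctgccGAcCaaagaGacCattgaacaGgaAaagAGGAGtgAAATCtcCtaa
Their longest identical stretch at the same position was 10 bases. The coding sequence of Actb, the beta actin gene, is closer to that of Actg1, the gene of the other cytoplasmic actin. Both are 1128 bases long and differ at 128 positions (88.7% identity), and their longest identical stretch, bases 889 to 950 of the coding sequence, is:
Actb and Actg1: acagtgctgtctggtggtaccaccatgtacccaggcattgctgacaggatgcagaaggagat
Reads that fall inside these 62 bases fit either gene.

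Sharing with other annotated genes was measured in windows of 50 bases over the protein-coding transcripts of each member. No window of Tmsb4x, Pfn1, Coro1a or Coro7 was found in a transcript of another gene. The share was 27% for Tmsb10, mostly with Gm9844, 12.2% for Actb, mostly with Lrrc58, and 8.22% for Cfl1, and it was 1.68% for Coro1c and 0.269% for Coro2a. For Coro1b 19.9% of windows were also part of Ptprcap transcripts, because the 2 genes overlap by 432 bases on the plus strand. Ptprcap, which encodes a protein associated with CD45, was at 841 to 937 CPM (counts per 1000000) in these libraries, against 124 to 143 CPM for Coro1b. How such reads were assigned is not known here, so the levels of Coro1b, Tmsb10, Actb and Cfl1 are uncertain by the reads that fall there. For Coro1b this part is not bounded by its 19.9% of windows, because Ptprcap was the more abundant gene. Windows matched the opposite strand of another gene's transcripts for 14.6% of Cfl1, 11% of Coro1c and 5.47% of Coro2a, and without a stated strand setting such reads cannot be told apart. Coro7 lies across from Dnaja3 over 39789 bases, on the opposite strand.

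Library totals ranged from 5519748 to 7296424 counts in LAIR-1-deficient and from 7974206 to 9187017 in wild type cells. Lair1 had 2, 1 and 1 counts in LAIR-1-deficient libraries against 58, 32 and 43 in wild type libraries. Of the markers of the sorted cells, Cd8a, Cd8b1 and Cd3e were at 870 to 1634 CPM in every library. The 9 markers of activated or memory CD8 T cells summed to 131.5 to 141 CPM in KO and 129.7 to 148 CPM in WT, led by Eomes at 40.2 to 58.7 CPM in KO and 38.1 to 52.5 CPM in WT and Il2rb at 38.1 to 47.6 CPM in KO and 40.0 to 52.5 CPM in WT, and Gzma was at 0 in at least 1 library. Of the 4 markers of CD4 T cells, Cd4 and Zbtb7b were at 0 in at least 1 library, while Ctla4 was at 1.504 to 6.34 CPM in KO and 1.86 to 5.04 CPM in WT and Foxp3 at 0.534 to 3.03 CPM in KO and 0.126 to 2.36 CPM in WT. The summed level of 14 early activation genes was 11650, 3882 and 3921 CPM in LAIR-1-deficient mice 1 to 3 and 9917, 4113 and 4488 CPM in wild type mice 1 to 3, so both mouse 1 libraries stood apart. Summed markers of B cells (5 genes) were at 26 to 33.6 CPM in LAIR-1-deficient and 30.5 to 33.7 CPM in wild type cells. Those of macrophages or monocytes (8 genes) were at 6.05 to 8.20 CPM in KO and 5.61 to 6.89 CPM in WT, with Lyz2, Emr1, Cd14 and Marco at 0 in at least 1 library. Those of platelets or megakaryocytes (4 genes) were at 1.07 to 2.73 CPM in KO and 3.03 to 5.93 CPM in WT, with Itga2b and Gp9 at 0 in at least 1 library. Those of CD4 T cells, NK cells, neutrophils and stroma summed to less than 10 CPM in each library. The 2 erythroid markers summed to 34.3, 26.9 and 141 CPM in LAIR-1-deficient and to 34.3, 168 and 74.4 CPM in wild type mice 1 to 3. The part of these other cells in the levels below was not tested, and in sorted bulk cells fewer cells of a type and less RNA per cell cannot be told apart.

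Together the 10 genes took 2.54%, 2.59% and 2.45% of all counts in LAIR-1-deficient mice 1 to 3 and 2.56%, 2.41% and 2.52% in wild type mice 1 to 3. The ranges of the groups overlapped. Nearly all of it came from the 5 genes of monomers and cofilin, which summed to 24330 ± 722 CPM in LAIR-1-deficient and 24180 ± 796 CPM in wild type cells (SD, n = 3 each). The 5 coronins summed to 893 ± 37.0 CPM in KO and 886 ± 63.0 CPM in WT.

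Within every one of the 6 libraries the counts ran in one order, Tmsb4x, Actb, Tmsb10, Pfn1, Cfl1, Coro1a, Coro1b, Coro1c, Coro7 and Coro2a. Exon length was taken as all annotated exons of a gene, joined over its transcripts, coding or not. Divided by this exon length, the means over all 6 libraries were 4670 CPM per kilobase for Tmsb4x, 3869 for Tmsb10, 2178 for Actb, 1692 for Pfn1 and 1059 for Cfl1. On the same per-length scale Coro1a stood at 242 CPM per kilobase, Coro1b at 41.4, Coro1c at 4.59, Coro7 at 3.22 and Coro2a at 2.33. The per-length ranges over libraries overlapped for Actb and Pfn1, for Coro1c and Coro7, and for Coro7 and Coro2a, and the other neighbours were separate. The joined length can exceed that of the coding transcripts. For Pfn1 it was 2405 bases, where the protein-coding transcripts held 977 windows of 50 bases, and for Coro1c 9664 bases against 3818 windows. On a shorter length such values would be higher, so the per-length order and gaps depend on the annotation. Whether reads covered whole transcripts or one end is not known here, and with reads from one end the per-length values would be too low for long transcripts. On both scales, with the lengths used here, Coro1a was the most abundant coronin, and Tmsb4x the most abundant member.

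**Figure D1:**
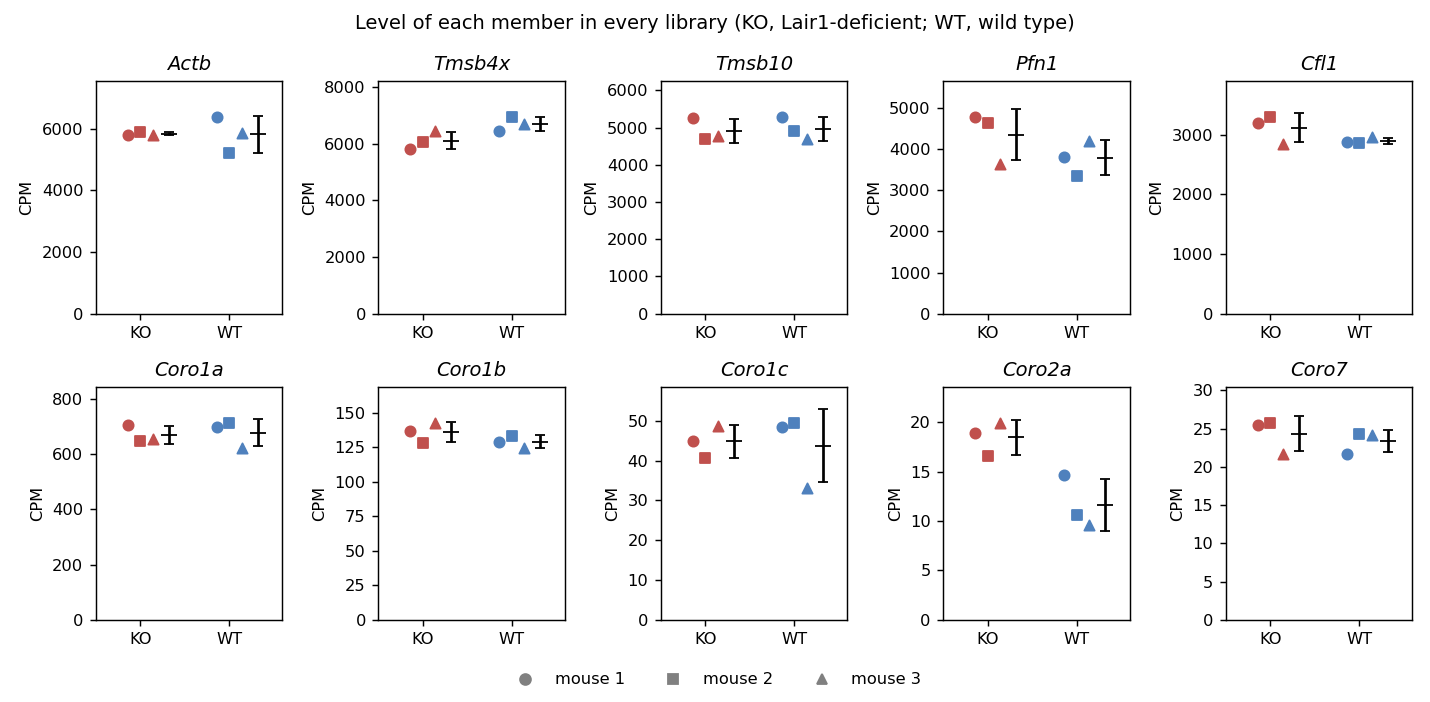
Level of each of the 10 genes in CPM (linear axes from 0) in the 3 LAIR-1-deficient (KO, left) and 3 wild type (WT, right) libraries. Symbols give the mouse number, and the black bar is the mean with its SD (n = 3). Coro2a and Tmsb4x are the only members whose groups do not overlap: Coro2a is at 16.5 to 19.96 CPM in KO and 9.65 to 14.6 CPM in WT.

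The members were proposed with the comparison of LAIR-1-deficient and wild type cells already known, so the differences below are a description and support nothing by themselves. Levels are CPM with edgeR's TMM scaling, and each log2 fold change sets LAIR-1-deficient over wild type cells, from edgeR's quasi-likelihood fit on all 9565 genes. At an adjusted p under 0.05 (Benjamini-Hochberg over all genes), 0 of the 10 members were called, where 0.0105% of all tested genes were called, which is Lair1 alone. DESeq2 and limma-voom also called 0 members, where of all 9565 tested genes DESeq2 called 1, Lair1, and limma-voom 0. At an unadjusted p under 0.05 edgeR had 1 of 10 members, Coro2a, against 3.25% of all tested genes. The groups did not overlap for 2 of 10 members, against 8.38% of all tested genes. One of them, Coro2a, was higher in LAIR-1-deficient cells, against 4.3% of all tested genes, and the other, Tmsb4x, was lower, against 4.09%. A log2 fold change beyond 0.5 in either direction was seen in 1 of 10 members and in 4.64% of all tested genes. Log2 fold changes were positive for 7 members and negative for 3, with a median of 0.05 against 0.00 over all tested genes. The median size of the change was 0.07 for the members and 0.11 for all tested genes.

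Actb was at 5802, 5894 and 5817 CPM in LAIR-1-deficient mice 1 to 3 and at 6401, 5210 and 5878 CPM in wild type mice 1 to 3. The LAIR-1-deficient values lay inside the wild type range. The log2 fold change was 0.00 with a 95% interval of -0.18 to 0.18. Leaving out single libraries moved it between -0.07 and 0.07, so it has no stable sign.

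The thymosins are small peptides that bind single monomers. Tmsb4x, the gene of thymosin beta 4, was at 5814, 6073 and 6432 CPM in LAIR-1-deficient and at 6445, 6960 and 6689 CPM in wild type cells. Every LAIR-1-deficient value was lower than every wild type value, with LAIR-1-deficient mouse 3 and wild type mouse 1 nearly touching. The summed platelet markers, from cells rich in this peptide, were also lower in each LAIR-1-deficient library. They were at 2.16, 1.07 and 2.73 CPM against 5.93, 3.39 and 3.03 CPM in wild type. The most abundant of them, Ppbp and Pf4, each overlapped between the groups, with 2 to 27 counts per library. All 4 platelet markers were too low to be tested, and the part of platelets in the level of Tmsb4x was not tested. The log2 fold change of Tmsb4x was -0.13 (95% interval -0.30 to 0.03). Tmsb10, its relative, was at 5271, 4691 and 4773 CPM in LAIR-1-deficient and at 5299, 4900 and 4686 CPM in wild type cells. In both groups mouse 1 was the highest, the groups overlapped, and the log2 fold change was -0.02 (-0.19 to 0.16). The ratio of Tmsb4x to Tmsb10 counts was 1.10, 1.30 and 1.35 in LAIR-1-deficient and 1.22, 1.42 and 1.43 in wild type mice 1 to 3.

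Pfn1, the profilin of most cells, varied more than the other abundant members. It was at 4792, 4630 and 3639 CPM in LAIR-1-deficient and at 3800, 3355 and 4202 CPM in wild type cells. LAIR-1-deficient mice 1 and 2 were above all wild type mice, and mouse 3 was inside their range. The log2 fold change was 0.20 (-0.03 to 0.43), and it was 0.31 without LAIR-1-deficient mouse 3 and 0.12 without LAIR-1-deficient mouse 1. The spread within groups, as an SD on the log2 scale, was 0.19 for Pfn1 and 0.06 to 0.11 for Actb, the thymosins and Cfl1, against a median of 0.19 over all tested genes.

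Cfl1, the non-muscle cofilin, was at 3205, 3307 and 2845 CPM in LAIR-1-deficient and at 2882, 2867 and 2959 CPM in wild type cells. As with Pfn1, LAIR-1-deficient mice 1 and 2 were above all wild type mice, while mouse 3 was the lowest of the 6. The log2 fold change was 0.10 (-0.07 to 0.28).

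**Figure D2:**
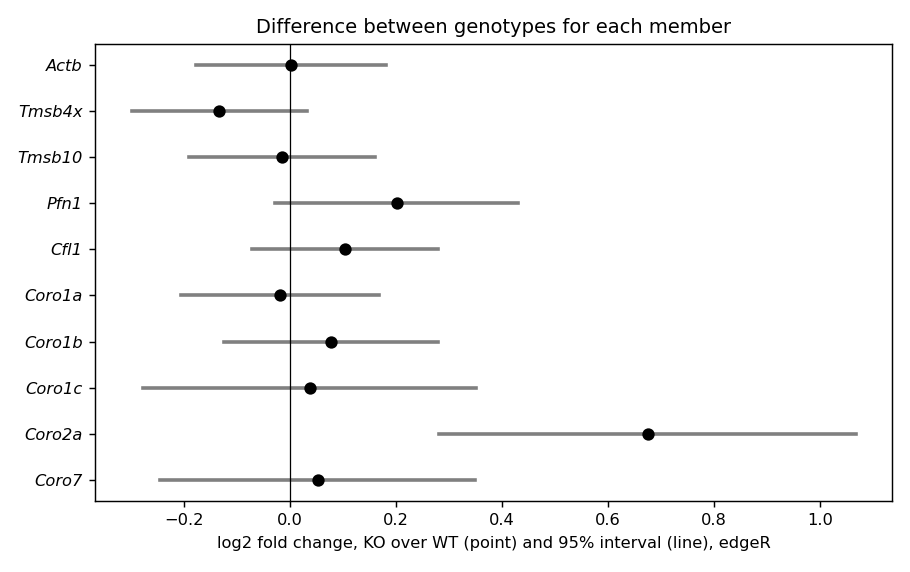
Log2 fold change of each of the 10 genes, LAIR-1-deficient (KO) over wild type (WT), with its 95% interval from edgeR's fit on all tested genes. The interval includes 0 for every member but Coro2a, whose log2 fold change is 0.68 with an interval of 0.28 to 1.07.

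Among the coronins the 3 type I genes come first, with log2 fold changes between -0.02 and 0.08. Coro1a was at 706, 648 and 654 CPM in LAIR-1-deficient and at 697, 714 and 623 CPM in wild type cells. Its log2 fold change was -0.02, with an interval of -0.20 to 0.17. Coro1b, which in other cells acts on ARP2/3 branches at the leading edge, was at 137, 129 and 143 CPM in KO against 129, 134 and 124 CPM in WT, and the groups overlapped. Its log2 fold change was 0.08 (-0.12 to 0.28), with the reads shared with Ptprcap unresolved. Coro1c, another coronin of the cell cortex, was at 45.0, 40.7 and 48.8 CPM in LAIR-1-deficient and at 48.6, 49.6 and 33.2 CPM in wild type cells. Wild type mouse 3 was the lowest of all, and without it the log2 fold change was -0.13, against 0.04 with all libraries.

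Coro7, a coronin with a pair of beta-propellers that is known from the Golgi apparatus, was at 25.5, 25.8 and 21.7 CPM in LAIR-1-deficient and at 21.7, 24.3 and 24.2 CPM in wild type cells. The groups overlapped, with a log2 fold change of 0.05 (-0.24 to 0.35). For 9 of the 10 members, all but Coro2a, the interval of the fold lay within 1.5-fold in both directions.

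Coro2a had the largest difference of the 10. It is a type II coronin, and in mouse macrophages its protein has been found in a nuclear receptor corepressor complex. It had 131, 93 and 146 counts in LAIR-1-deficient and 116, 97 and 86 in wild type mice 1 to 3, or 370 in KO and 299 in WT in sum, with KO libraries the shallower. Scaled to library size it was at 18.9, 16.5 and 19.96 CPM in LAIR-1-deficient and at 14.6, 10.6 and 9.65 CPM in wild type cells. Every LAIR-1-deficient value was above every wild type value, and wild type mouse 1 was the nearest to the other group. The means were 18.5 ± 1.75 CPM in LAIR-1-deficient and 11.6 ± 2.64 CPM in wild type cells (SD, n = 3 each).

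The fold of Coro2a, LAIR-1-deficient over wild type, was 1.596 with a 95% interval of 1.22 to 2.10, which takes no account of how the gene was chosen. Its size of change exceeded that of 98.1% of all tested genes. It was not called. Exact 95% Poisson intervals, which cover counting error only, were 13.3 to 20.3 CPM in LAIR-1-deficient mouse 2 and 12.1 to 17.5 CPM in wild type mouse 1. These 2 intervals, of the lowest LAIR-1-deficient and the highest wild type library, overlapped. Without mouse 1 of both groups, the libraries that stood apart in early activation genes, it had a log2 fold change of 0.85. It was 0.87 without wild type mouse 1 alone and 0.66 without LAIR-1-deficient mouse 1 alone. Over all single libraries left out it ran from 0.56 to 0.87.

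As a share of all coronin counts, Coro2a made up 2.02%, 1.92% and 2.25% in LAIR-1-deficient and 1.61%, 1.14% and 1.19% in wild type mice 1 to 3. Coro1a made up 75.7%, 75.4% and 73.7% in LAIR-1-deficient and 76.5%, 76.6% and 76.5% in wild type mice. Both shares separated the groups, in opposite directions, and shares of one sum are not independent of each other. For every 100 counts of Coro1a there were 2.67, 2.55 and 3.05 of Coro2a in LAIR-1-deficient and 2.10, 1.49 and 1.55 in wild type mice.

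**Figure D3:**
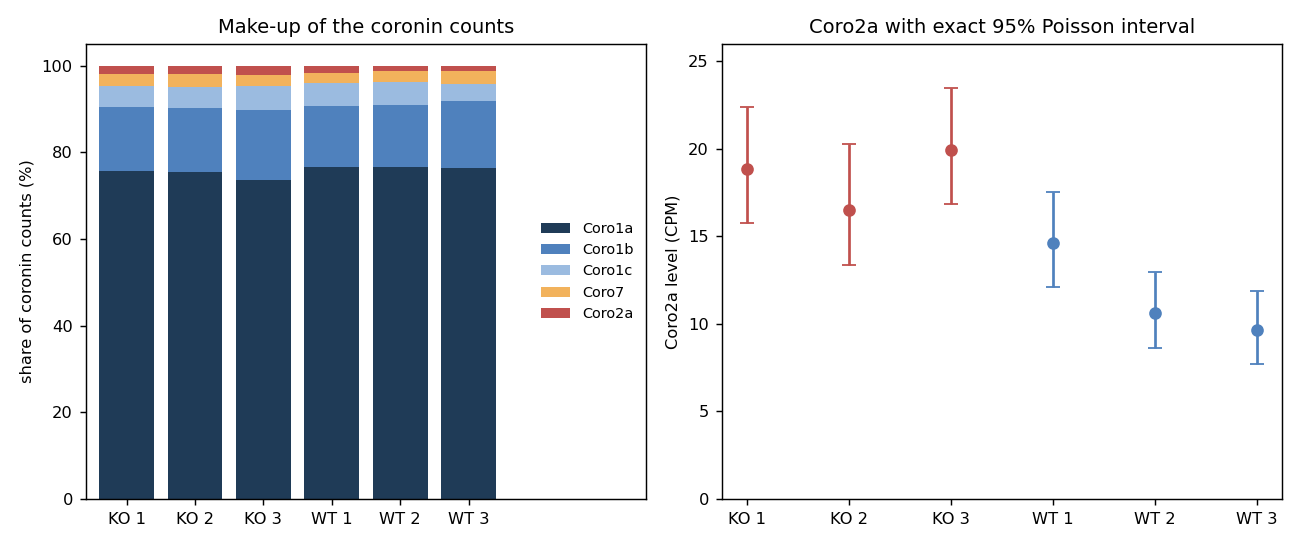
Left, the share of coronin counts (percent) that each of the 5 coronins took in each library, with LAIR-1-deficient (KO) libraries left of wild type (WT) ones. Right, the level of Coro2a in CPM with its exact 95% Poisson interval of counting error, which runs from 13.3 to 20.3 CPM in KO mouse 2 and from 12.1 to 17.5 CPM in WT mouse 1.

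One of 2 RefSeq promoter windows of Coro2a is printed because this member differed most and the window holds several copies of a motif. It is the one nearer the 5′ end of the gene (GRCm38.p6, chr4:46601880-46602179, minus strand, 76% GC against a median of 61% over windows of tested genes) and runs from 250 bases before to 50 after a transcription start. All motifs were searched on both strands, and capitals mark GGGCGG on either strand, the letters of the GC box:
Coro2a: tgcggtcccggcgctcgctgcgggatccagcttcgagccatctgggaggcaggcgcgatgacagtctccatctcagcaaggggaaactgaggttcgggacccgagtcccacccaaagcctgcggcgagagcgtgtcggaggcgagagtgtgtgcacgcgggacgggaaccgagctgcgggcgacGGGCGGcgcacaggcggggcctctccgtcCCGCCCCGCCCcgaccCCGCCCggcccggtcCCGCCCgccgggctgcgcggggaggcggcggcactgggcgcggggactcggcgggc
The window held 5 matches, of which one pair overlaps by a base, and 5.67% of the 9720 windows of tested genes held at least 5. It held the most of all member windows and set that number itself, and the windows compared were not matched for GC, so the share is a description only. The other Coro2a window (chr4:46566391-46566690, minus strand, 50% GC) held no such match and 1 match to CCAAT. At least 1 copy of GGGCGG was present in 11 of 12 windows of the 8 members listed there, all but that one, and in 64.3% of all windows of tested genes. By gene, 70.8% of tested genes with a window had at least 1 copy. The windows are not independent, as neighbouring Tmsb10 windows overlap and share a copy. Matches to the CArG box, the site named for serum response factor, were in 0 of the 12 windows and in 1.23% of all windows. TATAAA was in 0 of 12 and 6.68%, and CCAAT in 3 of 12 and 38%. For Actb and Coro1b no promoter window was available, so their promoters were not searched for any of these motifs.

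The 4 other named genes whose profile over the 6 libraries lay nearest to that of Coro2a were Akr1c13, Dcun1d4, Atp13a2 and Ms4a6c. Their root mean square difference from it, on centred log2 CPM, was 0.13, 0.13, 0.14 and 0.17. The median over the 9555 genes compared was 0.42. Because the 4 were chosen as the nearest, their small differences follow from the choice and show no link to Coro2a. Dcun1d4, for example, was at 4.90, 4.80 and 5.33 CPM in LAIR-1-deficient and at 3.66, 3.28 and 2.92 CPM in wild type cells. None of the 4 was called.

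Other genes of actin dynamics, none of them a member, were described in 11 lists of 181 genes, of which 166 were in the table and 142 were tested. edgeR called 0 of the 142 in either direction, where 0.0105% of all tested genes were called, and so did DESeq2 and limma-voom. At an unadjusted p under 0.05 edgeR had 4 (2.82%), DESeq2 3 and limma-voom 5. Among all 9565 tested genes edgeR had 311 (3.25%), DESeq2 217 and limma-voom 302. The groups did not overlap for 16 of them (11.3%), against 8.38% of all tested genes. Their log2 fold changes were positive for 81 and negative for 61, with a median of 0.03 against 0.00 over all tested genes.

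Among actins and the branching machinery no gene was called. Actg1, the other cytoplasmic actin, was at 2668 ± 187 CPM in LAIR-1-deficient and 2790 ± 190.5 CPM in wild type cells (SD, n = 3 each here and below). The muscle actins Acta1, Acta2 and Actg2 were too low to be tested, with at most 15 counts in a library. In the list of actin isoforms and actin-related proteins 5 genes were positive and 3 negative, and Actr6 and Actl6a, subunits of chromatin complexes, had log2 fold changes of 0.37 and 0.21. All 9 ARP2/3 genes in the table were tested, 3 positive and 6 negative, with a median of -0.03. Arpc2 was the most abundant, at 1104 ± 94.1 CPM in KO and 1125 ± 61.8 CPM in WT. Arpc1b, the isoform of blood cells, was at 127, 125 and 126 CPM in LAIR-1-deficient and at 142, 138 and 133 CPM in wild type cells, and Arpc1a had a log2 fold change of -0.15.

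Factors that switch ARP2/3 on were split into 13 positive and 7 negative among 20 tested genes. Wasf2, a subunit of the WAVE complex, was at 7.50, 6.76 and 7.52 CPM in LAIR-1-deficient and at 14.1, 9.63 and 10.5 CPM in wild type cells. The groups did not overlap, the log2 fold change was -0.65 (95% interval -1.10 to -0.20), and it was not called. Wash, an older symbol of Washc1, which acts on endosomes, was at 16.6 ± 1.35 CPM in KO and 13.4 ± 1.17 CPM in WT, and Cyfip2, a WAVE subunit, at 202 ± 9.77 CPM in KO and 190 ± 8.61 CPM in WT. Formins, which lengthen straight filaments, were positive in 6 and negative in 1 of 7 tested genes. Their median of 0.04 rested on single libraries: it was 0.19 without WT mouse 3, 0.13 without WT mouse 1 and -0.03 without WT mouse 2. Fmnl1, the formin of leukocytes, was at 512, 489 and 492 CPM in LAIR-1-deficient and at 461, 411 and 445 CPM in wild type cells, with a log2 fold change of 0.18 (-0.003 to 0.36). Diap2, an older symbol of Diaph2, had 0.17.

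Among 17 tested genes of filament disassembly, 9 were positive and 8 negative. Cap1, which works with cofilin in recycling monomers, was at 56.2, 46.6 and 56.2 CPM in LAIR-1-deficient and at 45.7, 43.0 and 41.3 CPM in wild type cells, without overlap and without a call. Cotl1 was the most abundant at 293 ± 22.1 CPM in KO and 305 ± 22.5 CPM in WT, and Mical3 was low, at 2.09 ± 0.280 CPM in KO and 1.17 ± 0.709 CPM in WT. Monomer binders and capping genes were positive in 2 and negative in 9 of 11 tested genes (median -0.06). Capza1, a subunit of capping protein, was at 81.4, 81.1 and 83.0 CPM in LAIR-1-deficient and at 84.0, 92.9 and 98.7 CPM in wild type cells. Add1 was at 354 ± 32.8 CPM in KO and 358 ± 26.9 CPM in WT, and Pfn2, a second profilin, at 2.58 ± 0.872 CPM in KO and 3.34 ± 0.268 CPM in WT.

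Cross-linkers and membrane linkers (19 tested) were positive in 10 and negative in 9 genes. Lcp1, the plastin of leukocytes, was at 834 ± 43.5 CPM in LAIR-1-deficient and 806 ± 33.0 CPM in wild type cells, Tagln2 at 541 ± 18.0 CPM in KO and 584 ± 9.83 CPM in WT, and Zyx at 260 ± 10.7 CPM in KO and 235 ± 28.2 CPM in WT. Myosins and tropomyosins (14 tested) were positive in 9 and negative in 5 genes. They were led by Myl6 at 1330 ± 62.7 CPM in KO and 1380 ± 128 CPM in WT. Myh9, the heavy chain of non-muscle myosin II in T cells, was at 591, 522 and 499 CPM in LAIR-1-deficient and at 490, 453 and 469 CPM in wild type cells, with a log2 fold change of 0.19. Myo1e was at 2.24 ± 1.62 CPM in KO and 0.768 ± 0.523 CPM in WT, from 3 to 20 counts per library.

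Of serum response factor and its cofactors 6 were tested, 3 positive and 3 negative, with Mkl1, an older symbol of Mrtfa, at 119.5 ± 4.33 CPM in KO and 112 ± 13.6 CPM in WT, and Elk4 at 4.30 ± 0.373 CPM in KO and 5.39 ± 1.57 CPM in WT. Of the other coronins, Coro2b had 0, 0 and 3 counts in LAIR-1-deficient and 4, 0 and 4 in wild type libraries and was not tested, and Coro6 was not analysed here.

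**Figure D4:**
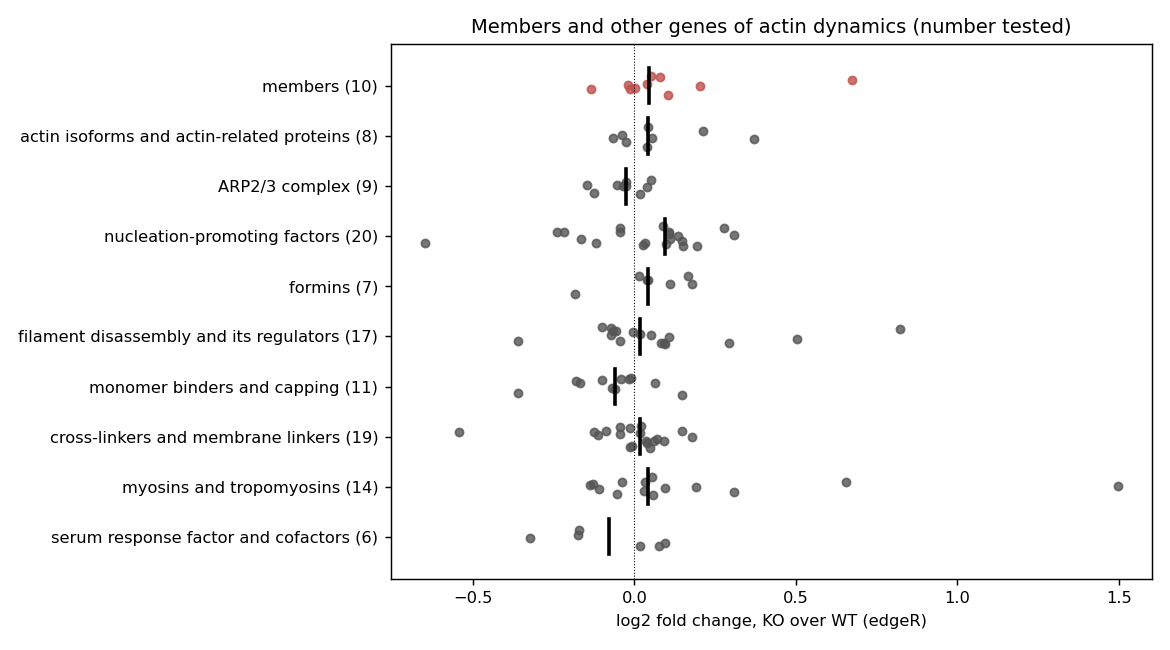
Log2 fold change, LAIR-1-deficient (KO) over wild type (WT), of the 10 members and of other tested genes of actin dynamics in 9 lists. Each point is a gene and the black line is the list's median. With all libraries the medians of the lists lie between -0.08 and 0.09, and single genes reach -0.65 (Wasf2) and 1.497 (Myo1e), none of them called. The lowest median, of serum response factor and its cofactors, and the highest, of nucleation-promoting factors, moved when single libraries were left out.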

How the data were processed

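The authors deposited a table of raw counts, whole numbers for each gene and library. For library preparation, primers of the Illumina TruSeq small RNA type are named in the labels' protocols. The submitters' processing notes name BWA and mm10. Not given in the sources used here were strandedness, molecular identifiers, gene models and counting software. One marker used for sorting and 1 of the 11 gene lists, which enters the totals over lists, are not reported here. Columns were matched by sample description, and 4 spike-in rows (0 to 4 counts per library) were left out.

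Genes were filtered with filterByExpr (smallest count 10), scaled by TMM and tested with edgeR 4.0.16 in R 4.3.3, a robust quasi-likelihood F test without covariate, two-sided, with Benjamini-Hochberg adjustment over 9565 genes and a threshold of 0.05. SEs and 95% intervals were derived from the fold change and F. Alternatives included DESeq2 1.42.0 and limma-voom (limma 3.58.1), and the scripts were tested on simulated data. Pairs of libraries differed by 4.99 to 23.4 in chi-square per gene, where sampling noise gives about 1, so all 6 were kept as separate mice. Each library is a mouse of its own, per the labels, and litters and sorting days are not named.

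The members, the gene lists and the tests were chosen with earlier results of these data known. From each other list the text names the 2 genes with the smallest unadjusted p and the most abundant gene. Of the markers it names Cd8a, Cd8b1 and Cd3e, and for some lists the 2 most abundant genes. For some lists it also names genes at 0 in at least 1 library, and such genes of other lists are not named. The 4 genes nearest to Coro2a were taken by root mean square difference of centred log2(CPM + 0.5), leaving out gene models without a symbol. Annotation and coding sequences are from GENCODE vM21, matched for 14313 rows by symbol or synonym and chromosome, and promoter windows are from RefSeq.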

Additional observations from a re-analysis of the deposited data

How the results depend on the processing

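In all 14 alternatives run, 0 members and 0 of the other genes of actin dynamics were called, and all 140 recomputed log2 fold changes of members moved by less than the spread within groups. The sign was the same in all 14 for Tmsb4x, Pfn1, Cfl1, Coro1b and Coro2a, whose log2 fold change lay between 0.56 and 0.87. It changed in some for Actb (-0.07 to 0.07), Tmsb10, Coro1a, Coro1c and Coro7. Of 140 recomputed list medians, 9 moved by more than that spread. They belonged to serum response factor and its cofactors, nucleation-promoting factors, ARP2/3, actin isoforms and actin-related proteins, and filament disassembly. The median of serum response factor and its cofactors was -0.08 with all libraries and 0.04 without wild type mouse 1. That of nucleation-promoting factors was 0.09 and fell to 0.04 without LAIR-1-deficient mouse 1. The formin median is not among the 9 but ran from -0.03 to 0.19 when 1 library was left out, against 0.04 with all. Over all genes the count of calls was 1 with all libraries. It was 3 without a filter on low counts and 0 with a smallest count of 30, where Lair1 itself was filtered out. It was 0 with limma-voom (Lair1 at an adjusted p of 0.142), 0 to 2 when 1 library was left out, and 0 without mouse 1 of both groups; the cause was not tested. Without wild type mouse 1 the count was 0, with Lair1 at an adjusted p of 0.0592 in edgeR. Same-numbered mice correlated in their deviations from the group means by 0.325, 0.0238 and 0.0684 for mice 1, 2 and 3. Differently numbered mice correlated by -0.238 to 0.201. The mouse 1 libraries thus deviated together more than any other pair, while mice 2 and 3 lay inside that range. The numbers were not taken to pair the samples in the main fit. With mouse number as a replicate block, 1 gene was called over all genes, and 0 members and 0 of the other genes of actin dynamics; the log2 fold change of Coro2a was 0.68. At these depths the least abundant member, Coro2a, rests on 86 to 146 counts per library.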
